A study of Mus musculus with 3 samples.

Results

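Voltage-gated sodium channel alpha subunits are the pore-forming proteins that carry the rising phase of the action potential, and 8 of their genes were followed here across the nerve cells of the mouse heart: Scn9a, Scn3a, Scn2a, Scn1a, Scn8a, Scn7a, Scn11a and Scn10a. They were chosen by gene symbol, though with earlier results of these data known, from 32285 gene rows in the matrices of the anterior and posterior libraries and 31064 rows in that of the mixed library. The series holds 3 single-cell RNA-seq libraries of intrinsic cardiac neurons, the parasympathetic nerve cells that sit in ganglia on the atria. All mice were Baf53b-cre;lox-GFP, a genotype in which Cre driven by Baf53b (Actl6b, a gene of postmitotic neurons) switches on GFP, and GFP-positive cells were sorted before capture. The anterior library came from anterior ganglia of mice aged 3 months, the posterior library from posterior ganglia of mice aged 4 months, and the mixed library from pooled ganglia of mice aged 2 months. Each was labelled as female and male, and the protocol gives 10 mice as the source, so each library is a pool of animals. Age and region change together between libraries, and whether the anterior and posterior pools share mice is not given in the sources used here.

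Each alpha subunit folds into a ring of homologous domains around a sodium-selective pore, opens when the membrane depolarizes and inactivates within milliseconds. Scn9a is the main channel of peripheral sensory and sympathetic neurons, Scn1a, Scn2a and Scn3a are best known from the central nervous system, with Scn3a most abundant before birth, and Scn8a is the channel of nodes of Ranvier and axon initial segments. Scn10a and Scn11a belong to sensory neurons and resist tetrodotoxin, the pufferfish toxin that plugs the outer pore of most other members. Scn7a encodes an atypical member that senses extracellular sodium in glia rather than opening with voltage.

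The bases shown here are, for 7 members, the coding stretch around the first-domain pore codon that sets tetrodotoxin sensitivity in rodent channels, where an aromatic residue binds the toxin and a serine does not. The codon is in capitals. Each stretch has 51 bases and was read 5′ to 3′ from the longest coding GENCODE vM21 transcript (GRCm38). In each of these the codon lay in exon 9 of that transcript and the stretch crossed into a second exon, so each range includes 1 intron.
Scn9a: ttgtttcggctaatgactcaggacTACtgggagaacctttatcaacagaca
Scn3a: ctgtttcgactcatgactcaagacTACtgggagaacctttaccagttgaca
Scn2a: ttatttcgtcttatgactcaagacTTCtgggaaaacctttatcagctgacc
Scn8a: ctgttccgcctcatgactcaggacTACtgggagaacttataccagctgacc
Scn7a: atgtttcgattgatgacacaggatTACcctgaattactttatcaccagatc
Scn11a: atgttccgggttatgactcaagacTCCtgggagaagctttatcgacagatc
Scn10a: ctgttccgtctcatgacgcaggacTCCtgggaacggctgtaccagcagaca
Scn9a, Scn3a and Scn8a carry TAC (tyrosine), Scn2a carries TTC (phenylalanine), and Scn11a and Scn10a carry TCC (serine). Scn7a also carries TAC, but its next codon differs from the tryptophan codon tgg of the other 6 shown.

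The stretches lie at chr2:66547227-66549027 (Scn9a, minus strand), chr2:65521027-65521839 (Scn3a, minus), chr2:65688412-65688610 (Scn2a, plus), chr15:100971614-100972756 (Scn8a, plus), chr2:66714057-66726201 (Scn7a, minus), chr9:119804568-119805706 (Scn11a, minus) and chr9:119666082-119666413 (Scn10a, minus). Scn9a, Scn3a, Scn2a and Scn7a thus lie near each other on chromosome 2, and Scn10a and Scn11a neighbour each other on chromosome 9. Scn9a, Scn3a and Scn1a each overlap an annotated gene on the opposite strand (Gm13629, Gm13595 and Gm13630), and none of these held more than 24 UMIs in the neurons of a library whose matrix lists it. Scn9a also overlaps Gm23046 on the opposite strand and the processed pseudogene Gm13627 on its own strand, whose UMIs were not counted here. No stretch of 50 bases in the last 600 bases of a transcript was shared with another gene for 7 members, and for Scn2a 25 of 551 were shared.

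Every value is a count of unique molecular identifiers (UMIs), which tag single captured transcripts at their 3′ end, so levels were not divided by transcript length. Priming inside introns could still tie UMIs to gene length, which was not tested. Levels are UMIs per 10000, summed over the cells of a library and class, with exact Poisson 95% intervals that cover counting error only. Neurons were the barcodes with at least 10000 UMIs in which Snap25, Prph and Stmn2 were all detected, which gave 1315 anterior, 1447 posterior and 1998 mixed neurons of 8361 barcodes in all. Their median depth was 39854 UMIs in anterior, 57151 in posterior and 57062.5 in mixed neurons. The neuron markers Snap25, Prph and Stmn2 summed to between 92.0 and 102 UMIs per 10000 in the neurons of the 3 libraries, against 6.66 to 7.25 in glia. These 3 genes were part of the gates, so this contrast is no test of them: glia also needed a glial marker sum above that of these 3. At most 3 barcodes were shared by any 2 libraries, and no more than 1 of them was a neuron in both.

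Scn9a was the most abundant member in the neurons of every library and Scn10a the least. Scn9a reached 1.82 UMIs per 10000 in anterior, 1.75 in posterior and 1.44 in mixed neurons. Scn3a followed with 0.798 in anterior, 1.01 in posterior and 0.647 in mixed neurons. In each library these stood above all other members, and Scn9a above Scn3a. Scn2a had 0.411 in anterior, 0.483 in posterior and 0.386 in mixed neurons, and Scn1a had 0.326 in anterior, 0.376 in posterior and 0.279 in mixed neurons, so Scn2a stood above Scn1a in all 3.

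The next members had no single order. Scn7a had 0.168 UMIs per 10000 in anterior, 0.161 in posterior and 0.127 in mixed neurons, Scn11a had 0.158, 0.165 and 0.105 in the same libraries, and Scn8a had 0.121, 0.168 and 0.102. In anterior and mixed neurons Scn7a came first, then Scn11a, then Scn8a. In posterior neurons the order differed and the intervals of all 3 overlapped, while in anterior neurons the Scn8a interval (0.111 to 0.130) lay below those of the other two. Scn10a gave 10, 21 and 21 UMIs over all anterior, posterior and mixed neurons, a level of at most 0.00261 UMIs per 10000. Scn9a alone made up 47.9% of the family's UMIs in anterior, 42.5% in posterior and 46.7% in mixed neurons. The 5 members known as voltage-gated and tetrodotoxin-sensitive (Scn9a, Scn3a, Scn2a, Scn1a and Scn8a) made up 91.4%, 92.0% and 92.4% of them, and the serine members Scn11a and Scn10a together 4.19%, 4.07% and 3.44%.

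**Figure D1:**
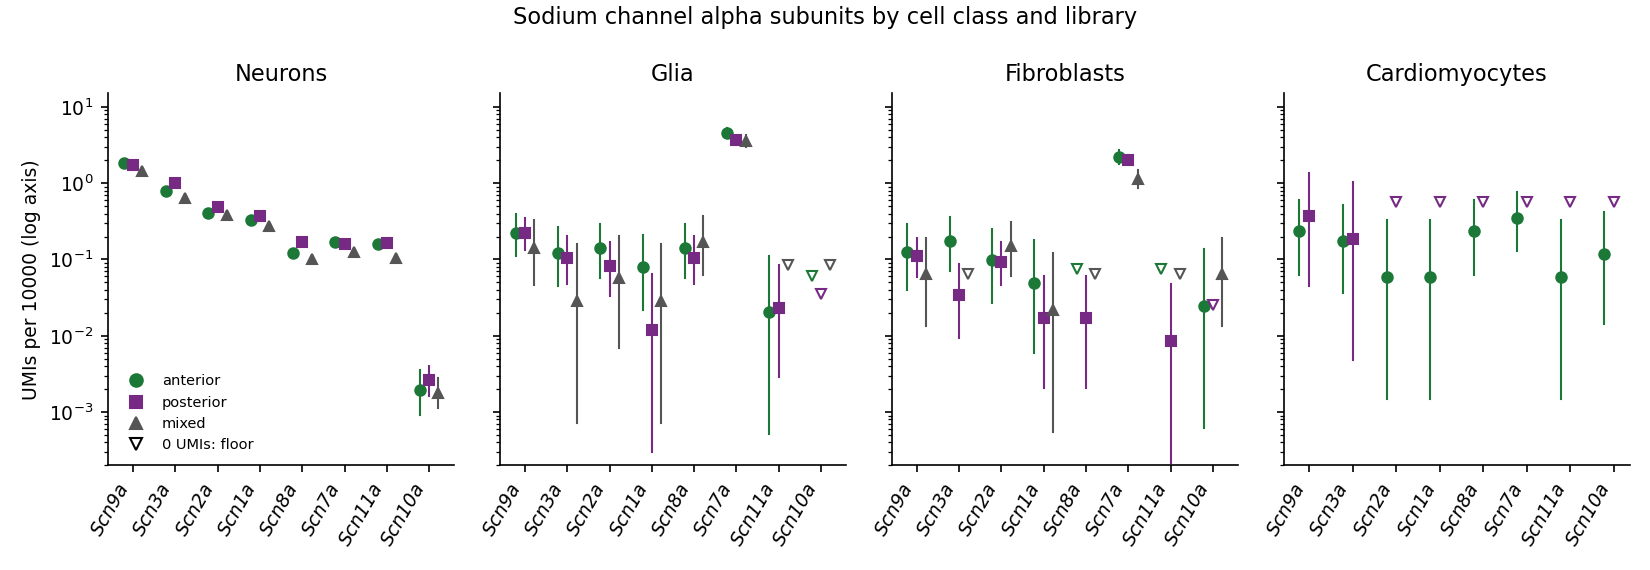
Level of each member (UMIs per 10000, log axis) in neurons, glia, fibroblasts and cardiomyocytes, 1 point per library with its exact Poisson 95% interval; open triangles mark 0 UMIs and sit at the floor of 3 UMIs per class total, and the 1 mixed cardiomyocyte is not drawn. Scn9a leads in neurons, Scn7a leads in glia and fibroblasts, and Scn10a stands lowest in neurons.

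At equal depth most neurons still held Scn9a. After each neuron was thinned to 10000 UMIs, Scn9a was detected in 76.9% of anterior, 72.4% of posterior and 74.9% of mixed neurons, and Scn3a in 54.3%, 59.2% and 49.4% of them. Without thinning Scn9a was detected in 96.7%, 94.1% and 98.8%. Scn10a was detected in 0.228% to 0.276% of thinned neurons. To set the Scn9a share against cells that should lack the gene, neurons and glia were thinned to 2000 UMIs: Scn9a was then detected in 30.2% of anterior, 30.9% of posterior and 25.2% of mixed neurons and in 3.16%, 4.64% and 1.41% of glia, after 68, 35 and 20 shallower glia had been left out.

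A thinned neuron held a median of 2 members in each library, and 3 or more in 41.2% of anterior, 45.5% of posterior and 35.7% of mixed neurons. Scn3a was found in 58.5% of the anterior neurons with Scn9a and in 40.5% of those without it. The same shares were 64.0% and 46.4% in posterior and 51.4% and 43.3% in mixed neurons. Across cells, which share a library and its nuclear RNA gradient (described at the end), the highest rank correlation between members was that of Scn9a and Scn1a in posterior neurons (Spearman rho 0.518 over 1447 cells). In the middle of the nuclear RNA range it was 0.394 over 723 cells, and the Scn9a and Scn3a pair had 0.227 in anterior, 0.185 in posterior and 0.00819 in mixed neurons of that range, against 0.384, 0.458 and 0.134 over all neurons.

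Scn7a was the member of the support cells. Glia were gated by 8 satellite glia and Schwann cell markers, among them Fabp7 and Sox10 (163 anterior, 186 posterior and 91 mixed cells). In these glia Scn7a reached 4.58 UMIs per 10000 in anterior, 3.73 in posterior and 3.56 in mixed cells, more than Scn9a over all neurons of any library. Neurons had 23.7-fold less Scn7a than glia (log2 fold change -4.57 ± 0.198 (SE), adjusted p = 5.21e-42, edgeR). Fibroblasts (93, 175 and 96 cells gated by collagen and other matrix genes) had 2.20, 2.04 and 1.15 UMIs of Scn7a per 10000, and the few endothelial, smooth muscle and epithelial cells, macrophages and lymphocytes had at most 0.352, from no more than 7 UMIs.

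Of the 7 members tested, 5 were higher in neurons than in glia and only Scn7a was lower, where 69% of all 9536 genes tested were called at a false discovery rate (FDR) of 0.05 (35.4% higher and 33.6% lower). Scn1a was 10.1-fold higher (log2 3.34 ± 0.456, adjusted p = 2.01e-10), Scn3a 9.90-fold (3.31 ± 0.324, adjusted p = 1.12e-16), Scn11a 9.06-fold (3.18 ± 0.625, adjusted p = 4.00e-06), Scn9a 9.01-fold (3.17 ± 0.261, adjusted p = 5.92e-21) and Scn2a 4.97-fold (2.31 ± 0.346, adjusted p = 3.81e-09). The folds of Scn11a and Scn1a are loose, as their glial counts were near or below the floor of 3 UMIs. Anterior, posterior and mixed glia held 1, 2 and 0 UMIs of Scn11a and 4, 1 and 1 of Scn1a. The neuron marker sum was 14.7-fold, 12.7-fold and 14.4-fold higher in neurons than in glia of the anterior, posterior and mixed libraries, and neuronal RNA diluted by these factors gives 6.14, 11.8 and 3.51 UMIs of Scn9a in glia, where 11, 19 and 5 were seen. These factors carry the gates, which used the same neuron markers. The part of such RNA in the glial values was not tested. Scn8a was not separated (log2 0.14 ± 0.374, adjusted p = 0.753): neurons had 0.121, 0.168 and 0.102 UMIs per 10000 and glia 0.141, 0.105 and 0.171, where the same dilution gives 0.00820, 0.0132 and 0.00704. Its sign turned negative with RLE size factors (log2 -0.10), which moved the median over all genes to -0.19, against 0.06 with TMM factors, and without the posterior library (-0.24). Nuclear RNA (Malat1, Meg3 and Neat1 summed) also differed, with medians of 1122, 841 and 598 UMIs per 10000 in anterior, posterior and mixed glia. Neurons had 47.9, 70.4 and 146, and the part of nuclear RNA in all folds against glia was not tested.

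Cardiomyocytes were few (37 anterior, 24 posterior and 1 mixed cell, the last not tested). Scn9a, Scn2a, Scn1a and Scn3a were higher in neurons than in cardiomyocytes, 4 of 7 members tested and none lower, where 28.1% of all genes were called (15.4% higher and 12.7% lower) and the median over all genes was 0.32. Scn9a was 6.07-fold higher (log2 2.60 ± 0.498, adjusted p = 1.07e-05). The whole family held 22 UMIs in anterior and 3 in posterior cardiomyocytes, and neuronal RNA diluted as its markers were gives 3.61 of the 4 UMIs of Scn9a in anterior and 1.32 of the 2 in posterior cells. Without the anterior library Scn2a, Scn1a and Scn3a lost the call (adjusted p = 0.109, 0.188 and 0.0868), and without the posterior library Scn2a and Scn1a did (adjusted p = 0.0661 and 0.143). Either fit has a single sum of cardiomyocytes, which is assumed to vary like the other groups. Without the anterior library 1111 genes in all were called in place of 2675. Over all alternatives the highest adjusted p was 0.109, 0.188 and 0.0868 for these 3 genes and 0.0287 for Scn9a. Scn8a, Scn7a and Scn11a were not called in this comparison.

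Neurons were split by 3 genes that mark known subtypes: Nos1 (neuronal nitric oxide synthase, at least 1 UMI per 10000), Ddah1 (which degrades an endogenous inhibitor of nitric oxide synthases, at least 1) and Npy (neuropeptide Y, at least 4). Nos1 neurons were set first, Ddah1 neurons were those with Ddah1 and Npy below its limit, and Npy neurons those with Npy and Ddah1 below its limit. This gave 84, 61 and 55 Nos1 neurons, 103, 436 and 336 Ddah1 neurons, and 1047, 760 and 1504 Npy neurons in the anterior, posterior and mixed libraries. All but 1 of the Nos1 neurons of each library also passed the Npy limit. Ddah1 levels between 0.5 and 2 were found in 176, 282 and 166 neurons, so that limit cuts through many cells, while Npy levels between 2 and 8 were found in 27, 86 and 42.

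**Figure D2:**
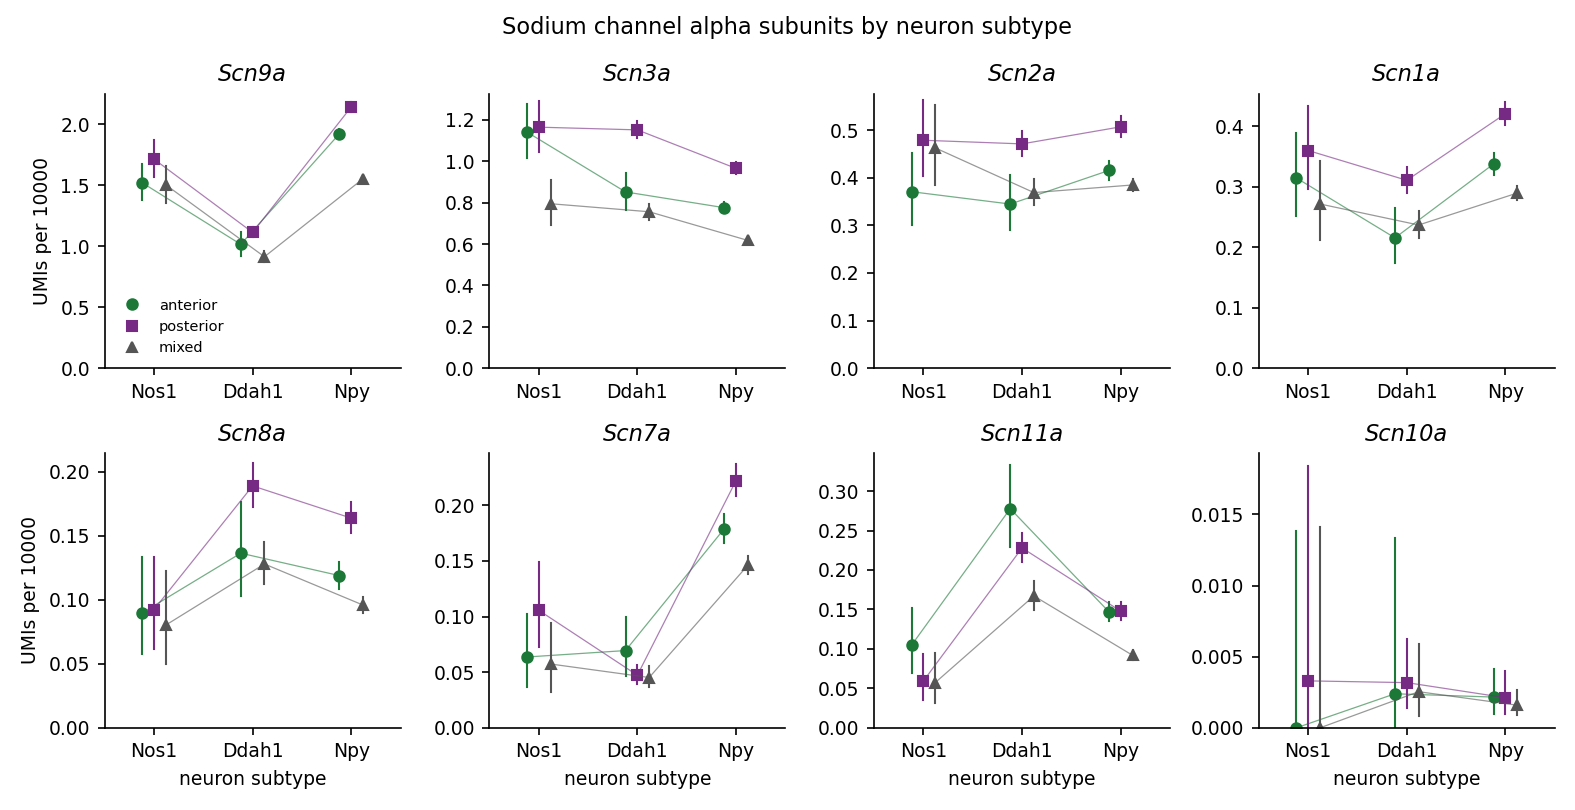
Level of each member (UMIs per 10000, axes from 0) in Nos1, Ddah1 and Npy neurons, 1 point per library with its exact Poisson 95% interval and lines joining the values of a library. Scn9a and Scn7a are lower in Ddah1 than in Npy neurons of all 3 libraries, and Scn11a is highest in Ddah1 neurons.

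Ddah1 neurons had less Scn9a, Scn7a and Scn1a and more Scn11a, Scn3a and Scn8a than Npy neurons. UMI counts were summed per library and subtype and tested across the 3 libraries with edgeR, with library as a block. Of the 7 members tested, 3 were higher and 3 lower, where 29.3% of 13301 genes were called (14.3% higher and 15% lower). Without the posterior library 2233 genes were called in place of 3897. The median log2 fold change was -0.14 over the members and -0.00216 over all genes.

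Scn9a had 1.02, 1.11 and 0.913 UMIs per 10000 in Ddah1 neurons of the anterior, posterior and mixed libraries, against 1.92, 2.14 and 1.55 in Npy neurons. Every Ddah1 value lay below every Npy value. The log2 fold change was -0.89 ± 0.0571 (adjusted p = 2.09e-09), or 1.86-fold lower in Ddah1 neurons, and it stayed between -0.96 and -0.85 under all 17 alternatives. Scn9a was 34.8%, 31.7% and 34.9% of the family's UMIs in Ddah1 neurons, against 49.3%, 46.8% and 48.8% in Npy neurons.

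Scn3a, the member of the immature nervous system, had 0.852, 1.15 and 0.756 UMIs per 10000 in Ddah1 neurons, against 0.776, 0.966 and 0.618 in Npy neurons. It was higher in Ddah1 neurons of each library, but the groups overlapped across libraries (log2 0.23 ± 0.0619, adjusted p = 0.00985). In posterior Ddah1 neurons its 1.15 stood beside 1.11 for Scn9a. The call was lost without the posterior library (adjusted p = 0.0961) and without the mixed one (0.0577), and the alternatives gave adjusted p between 0.00278 and 0.857.

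Scn7a showed the widest gap within the family. It had 0.0694, 0.0473 and 0.0452 UMIs per 10000 in Ddah1 neurons, against 0.179, 0.222 and 0.146 in Npy neurons, and the groups did not overlap. The log2 fold change was -1.92 ± 0.129 (adjusted p = 3.79e-09), or 3.78-fold lower in Ddah1 neurons. At 10000 UMIs per cell 0.971%, 3.90% and 3.87% of Ddah1 neurons had a UMI of Scn7a, against 16.6%, 18.8% and 14.2% of Npy neurons. Without thinning the shares were 12.6%, 9.40% and 11.9% of Ddah1 neurons, against 42.8%, 52.5% and 46.7% of Npy neurons.

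Since glia and fibroblasts hold far more Scn7a than neurons, their markers were read beside this difference. The 8 glial markers summed to 2.56, 2.78 and 4.72 UMIs per 10000 in Ddah1 neurons, with 7, 8 and 7 of them detected, against 2.37, 1.92 and 4.36 in Npy neurons, with all 8 detected. In the neurons with no UMI of the 3 glial markers used to read free glial RNA, Scn7a stood at 0.0649, 0.0414 and 0.0157 in Ddah1 neurons, against 0.174, 0.219 and 0.125 in Npy neurons. Without the neurons over 1 UMI per 10000 of these 3 the log2 fold change was -2.78. The values of single libraries in that set of neurons are not given here. In the stricter set with no UMI of these 3, the mixed Ddah1 value went from 0.0452 over all Ddah1 neurons to 0.0157. In anterior it went from 0.0694 to 0.0649 and in posterior from 0.0473 to 0.0414. The part of glial RNA in the Scn7a difference was not tested. The 6 fibroblast markers summed to 0.989, 0.774 and 0.833 in Ddah1 neurons (6, 5 and 5 detected), against 1.01, 1.26 and 1.12 in Npy neurons (6, 6 and 5 detected). Their part in the Scn7a difference was not tested.

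Scn11a, a serine-codon channel that carries persistent current near the resting potential in sensory neurons, ran the other way. It had 0.278, 0.228 and 0.167 UMIs per 10000 in Ddah1 neurons, against 0.147, 0.148 and 0.0919 in Npy neurons. The lowest Ddah1 value was above the highest Npy value (log2 0.77 ± 0.0878, adjusted p = 2.71e-06). Together with Scn10a it made up 9.61%, 6.58% and 6.48% of the family in Ddah1 neurons, against 3.83%, 3.28% and 2.94% in Npy neurons.

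The remaining members differed less. Scn1a had 0.215, 0.311 and 0.237 UMIs per 10000 in Ddah1 neurons, against 0.338, 0.421 and 0.290 in Npy neurons (log2 -0.43 ± 0.0708, adjusted p = 0.000141), lower in each library with overlap across libraries. Scn8a had 0.136, 0.189 and 0.128 in Ddah1 neurons, against 0.119, 0.164 and 0.0959 in Npy neurons (log2 0.27 ± 0.0877, adjusted p = 0.0266). The Scn8a call was lost with DESeq2 (adjusted p = 0.151), without the posterior library (0.106) and without the mixed library (0.190), and the alternatives ranged between 0.00183 and 0.741. Scn2a had 0.345, 0.471 and 0.369 in Ddah1 neurons, against 0.415, 0.507 and 0.385 in Npy neurons, and was not called (log2 -0.14 ± 0.067, 95% interval -0.28 to -0.00098, adjusted p = 0.126). Scn10a, with 1, 8 and 5 UMIs in Ddah1 neurons and 9, 9 and 14 in Npy neurons, was too rare for the test.

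Nos1 neurons had less Scn7a, Scn11a, Scn8a and Scn9a and more Scn3a than Npy neurons, 4 lower and 1 higher of 7 members tested, where 12.9% of all genes were called (6.23% higher and 6.69% lower). The Nos1 sums rest on 55 to 84 cells per library. Scn7a had 0.0636, 0.106 and 0.0573 UMIs per 10000 in Nos1 neurons, against 0.179, 0.222 and 0.146 in Npy neurons (log2 -1.30 ± 0.193, adjusted p = 0.000153). The groups did not overlap, and the call held under all 17 alternatives.

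Scn11a had 0.105, 0.0594 and 0.0573 in Nos1 neurons, against 0.147, 0.148 and 0.0919 in Npy neurons (log2 -0.86 ± 0.179, adjusted p = 0.00307). It lost the call without the posterior library (adjusted p = 0.0861, within a range of 1.33e-05 to 0.258 over the alternatives). Scn3a had 1.14, 1.17 and 0.795 in Nos1 neurons, against 0.776, 0.966 and 0.618 in Npy neurons (log2 0.35 ± 0.0741, adjusted p = 0.00387), and missed the call without the anterior library (adjusted p = 0.0536, range 0.000395 to 0.696). Scn3a was higher in Nos1 neurons of each library.

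Scn9a had 1.52, 1.71 and 1.503 in Nos1 neurons, against 1.92, 2.14 and 1.55 in Npy neurons. It was lower in each library, with overlap across libraries. The difference was small (log2 -0.29 ± 0.0624, adjusted p = 0.00432) and missed the call without the anterior library (adjusted p = 0.0975) or the posterior library (0.108), within a range of 1.44e-05 to 0.539. Scn8a had 0.0899, 0.0924 and 0.0803 in Nos1 neurons, against 0.119, 0.164 and 0.0959 in Npy neurons (log2 -0.58 ± 0.159, adjusted p = 0.0227). That call failed in 7 of 17 alternatives, among them those without the anterior library (adjusted p = 0.0681) and without the posterior library (0.370), with a range of 0.00458 to 0.987. Without the anterior library 965 genes in all were called in place of 1718. Scn2a (log2 -0.04 ± 0.0897) and Scn1a (-0.19 ± 0.0978) were not called.

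Set against Ddah1 neurons directly, Nos1 neurons had more Scn9a (log2 0.61 ± 0.0662, adjusted p = 1.79e-06) and less Scn11a (-1.63 ± 0.174, adjusted p = 1.32e-06) and Scn8a (-0.85 ± 0.163, adjusted p = 0.000701). That is 1 higher and 2 lower of 7 members, where 28.6% of all genes were called (13.7% higher and 14.9% lower). Nos1 and Ddah1 neurons did not overlap in any of these 3 genes. The 3 comparisons share their sums, so they are not independent of each other. Scn7a was not called between Nos1 and Ddah1 neurons (log2 0.62 ± 0.247, adjusted p = 0.0735, 95% interval 0.10 to 1.14), but was without the anterior library (adjusted p = 0.0287, within a range of 0.0113 to 0.999).

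**Figure D3:**
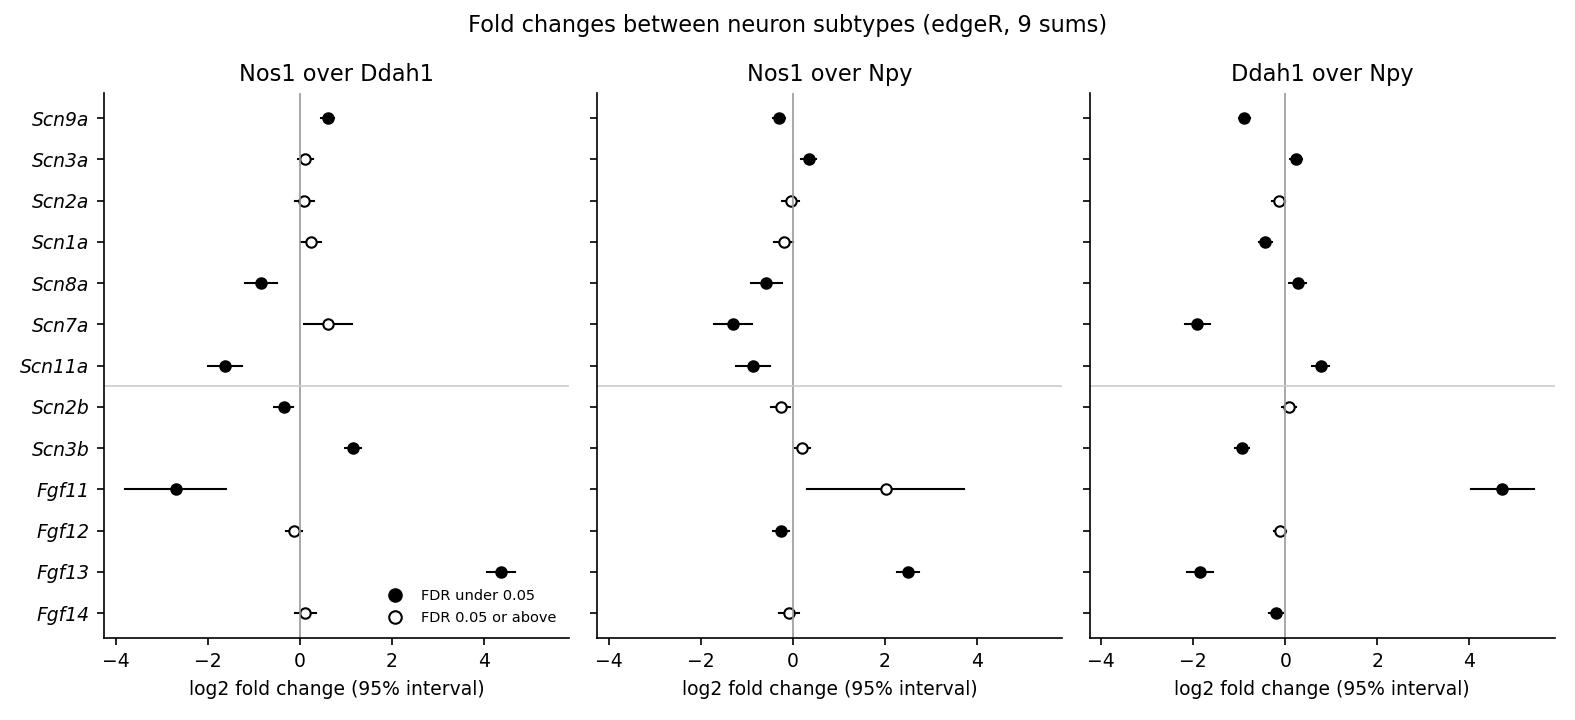
Log2 fold change (edgeR, 95% interval) between Nos1 and Ddah1, Nos1 and Npy, and Ddah1 and Npy neurons for 7 members (above the grey line) and for beta subunits and fibroblast growth factor homologous factors (below it); filled points pass an FDR of 0.05. Scn11a changes sign between the panels, and Fgf13 and Fgf11 reach the largest values shown.

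Sodium channels work with beta subunits, with fibroblast growth factor homologous factors that bind the intracellular tail and shape inactivation, and with anchoring proteins of the axon initial segment. Of 20 such partners, 18 were tested. In Ddah1 against Npy neurons 4 were higher and 7 lower, and in Nos1 against Npy neurons 1 was higher and 6 lower. In Nos1 against Ddah1 neurons 5 were higher and 5 lower. Of all genes 29.3%, 12.9% and 28.6% were called in these comparisons, in the same order. Median log2 fold changes of the list were -0.09, -0.17 and -0.05 in the same order, against -0.00216, -0.03 and -0.02 over all genes.

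Fgf13, a homologous factor known to modulate Scn9a channels, set the 3 subtypes apart. It had 2.98, 1.83 and 2.04 UMIs per 10000 in Nos1 neurons, 0.141, 0.107 and 0.0869 in Ddah1 neurons and 0.385, 0.436 and 0.329 in Npy neurons. Nos1 neurons thus had 20.6-fold more than Ddah1 neurons (log2 4.36 ± 0.141, adjusted p = 5.19e-13) and 5.68-fold more than Npy neurons (2.51 ± 0.111, adjusted p = 8.52e-11). Ddah1 neurons had 3.63-fold less than Npy neurons (-1.86 ± 0.135, adjusted p = 1.02e-08).

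Its paralogue Fgf11 had the opposite order between Ddah1 and Npy neurons, at far lower levels. It had 0.0646, 0.0540 and 0.0442 UMIs per 10000 in Ddah1 neurons, against 0.00144, 0.00377 and 0.00102 in Npy neurons, a log2 fold change of 4.72 ± 0.320 (adjusted p = 4.29e-09). The Npy values rest on 6, 16 and 9 UMIs. In Nos1 neurons it gave 1, 5 and 1 UMIs, lower than in Ddah1 neurons (log2 -2.70 ± 0.518, adjusted p = 0.000698).

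Among the beta subunits, which set surface level and gating of the alpha subunits, Scn3b stood at 1.18, 1.19 and 1.09 UMIs per 10000 in Nos1 neurons, at 0.587, 0.548 and 0.411 in Ddah1 neurons and at 1.01, 1.14 and 0.754 in Npy neurons. Scn3b was lower in Ddah1 than in Npy neurons (log2 -0.94 ± 0.0708, adjusted p = 1.54e-08) and higher in Nos1 than in Ddah1 neurons (1.15 ± 0.0862, adjusted p = 1.81e-08). Over all neurons Scn2b had 0.806, 0.896 and 0.569 and Scn3b 0.976, 0.944 and 0.701 UMIs per 10000, while Scn4b and the muscle channel Scn4a stayed at or below 0.00186. Nrcam, an adhesion molecule of the node and initial segment, was lower in Ddah1 than in Npy neurons (log2 -0.96 ± 0.0915, adjusted p = 2.93e-07) and in Nos1 than in Npy neurons (-0.64 ± 0.124, adjusted p = 0.00187). Dpysl2, a tubulin-binding protein that affects channel trafficking, was also lower in Nos1 than in Npy neurons (-0.41 ± 0.0569, adjusted p = 8.60e-05).

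Neurons that passed both the Npy and the Ddah1 limit (61, 116 and 83 cells) had Scn9a at 1.85, 1.90 and 1.54 and Scn7a at 0.219, 0.183 and 0.135 UMIs per 10000. These values were near those of Npy neurons. Neurons that passed none of the limits (20, 74 and 20 cells) had Scn9a at 2.01, 0.989 and 1.77. The 74 posterior cells stood apart: their neuron marker sum was 47.4 UMIs per 10000, their fibroblast markers reached 20.6 with all 6 detected, and 40.5% of them held no member after thinning, against 7.67% of all posterior neurons.

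Within Nos1 neurons, cells with at least 1 UMI per 10000 of Vip, the vasodilator peptide, had more Scn3a than cells below that limit: 1.26 against 0.877 UMIs per 10000 in anterior (61 and 23 cells), 1.47 against 1.03 in posterior (23 and 38 cells) and 1.08 against 0.625 in mixed Nos1 neurons (23 and 32 cells). Their nuclear RNA medians were 44.6 against 37.4, 110 against 111 and 247 against 144, and the part of nuclear RNA in the Scn3a difference was not tested. Scn7a went the other way, at 0.0534 against 0.0877, 0.0423 against 0.134 and 0.0103 against 0.0850 in the same order, from 1 to 28 UMIs. These splits were described and not tested. In Npy neurons with at least 1 UMI per 10000 of the prostaglandin receptor Ptger3, Scn9a was 2.70, 2.94 and 1.81, against 1.40, 1.495 and 1.39 below that limit. Every other member was also higher above the limit in each library, though Scn10a was too rare to read. Scn2a, for example, was 0.585, 0.690 and 0.430, against 0.301, 0.360 and 0.355. Nuclear RNA medians were also higher in the cells above the limit, at 145, 191 and 165 against 20.8, 33.2 and 133. The part of nuclear RNA in these differences by Ptger3 was not tested.

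Between the regions Scn3a and Scn8a were lower in the anterior than in the posterior neurons, but each region has 1 library, so intervals cover counting error only and no test was possible. Scn3a had 0.798 UMIs per 10000 in anterior and 1.01 in posterior neurons, a ratio of 0.786 (0.757 to 0.816). Scn8a had 0.121 in anterior and 0.168 in posterior neurons, a ratio of 0.720 (0.654 to 0.792). Scn2a had a ratio of 0.850 (0.806 to 0.896), Scn1a 0.868 (0.817 to 0.922), Scn7a 1.05 (0.959 to 1.14) and Scn11a 0.953 (0.872 to 1.04). No member passed 1.5-fold, as did 1.88% of 8314 genes (0.289% higher in anterior and 1.59% higher in posterior neurons). The median gene stood at -0.08 on the log2 scale, and at 0.03 when scaled by TMM factors, under which Scn11a turned to 1.03.

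By UMIs per 10000, Scn9a turned round within subtypes. Over all neurons its anterior to posterior ratio was 1.04 (1.01 to 1.07), but it was 0.912 (0.822 to 1.01) in Ddah1 neurons alone and 0.897 (0.871 to 0.925) in Npy neurons alone. In log2 terms the subtype ratios were -0.13 and -0.16, where the median gene stood at -0.08 and -0.09. With TMM factors the Scn9a ratio over all neurons was 1.12 (1.09 to 1.15), and the subtype ratios were not scaled so. The posterior library held 436 Ddah1 neurons among 1447, and the anterior library 103 among 1315. The part of this makeup in the Scn9a ratio was not tested, and region cannot be told apart from age or library. Scn7a showed 1.05 over all neurons and 0.805 (0.731 to 0.887) in Npy neurons alone. Scn3a and Scn8a stayed below 1 in both subtypes, at 0.740 and 0.722 in Ddah1 neurons and at 0.803 and 0.726 in Npy neurons. In mixed neurons Scn3a had 0.647 and Scn8a 0.102 UMIs per 10000, less than in either region.

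**Figure D4:**
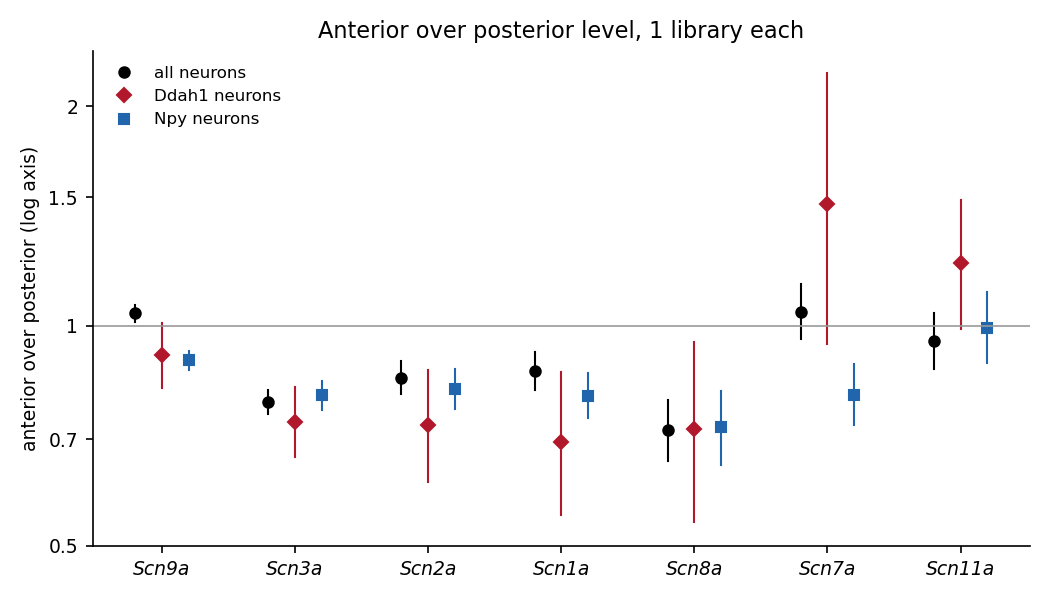
Anterior over posterior level of 7 members (log axis, exact 95% counting intervals, 1 library per region) over all neurons, in Ddah1 neurons alone and in Npy neurons alone. Scn9a lies above 1 over all neurons and below 1 in each subtype, and Scn3a, Scn2a, Scn1a and Scn8a lie below 1 throughout.

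Most members stood higher in neurons with more nuclear transcripts; Scn10a was too rare to read, and Scn7a in mixed neurons showed no such trend. Neurons of each library were ranked by the sum of Malat1, Meg3 and Neat1, long non-coding RNAs that stay in the nucleus, and cut into 4 equal bins. In the highest over the lowest bin Scn9a was 2.86-fold higher in anterior, 3.53-fold in posterior and 1.56-fold in mixed neurons, and Scn2a 3.29-fold, 3.83-fold and 2.33-fold. The smallest ratio was that of Scn11a in anterior and posterior neurons (1.82-fold and 2.52-fold) and that of Scn7a in mixed neurons (1.13-fold), where the bins from low to high had 0.122, 0.133, 0.120 and 0.137 UMIs per 10000. For the neuron gene Snap25 the ratios were 1.24, 1.06 and 1.16. The bins also differed in depth, with medians of 29449, 36820.5 and 43250 UMIs in the highest and 43613, 59303.5 and 67818 in the lowest. Median mitochondrial shares were 3.18%, 3.77% and 4.63% in the highest and 2.38%, 1.77% and 3.92% in the lowest bin. The part of depth and mitochondrial RNA in these ratios was not tested.

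Scn9a and Scn7a were lower and Scn11a higher in Ddah1 than in Npy neurons in all 4 bins of each library, while Scn3a was 1.184 in Ddah1 and 1.202 in Npy neurons of the highest anterior bin. Scn9a in the lowest bin was 0.579, 0.640 and 0.704 UMIs per 10000 in Ddah1 neurons, against 1.08, 1.10 and 1.25 in Npy neurons, and in the highest bin 1.51, 2.07 and 1.18 in Ddah1 neurons, against 3.23, 3.86 and 1.94 in Npy neurons. Median nuclear RNA was 50.1, 50.7 and 139 UMIs per 10000 in Ddah1 neurons, against 47.5, 83.3 and 149 in Npy neurons. With only the cells below the median nuclear RNA of each library, the log2 fold change between Ddah1 and Npy neurons was -0.86 for Scn9a, -1.59 for Scn7a and 0.83 for Scn11a.

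**Figure D5:**
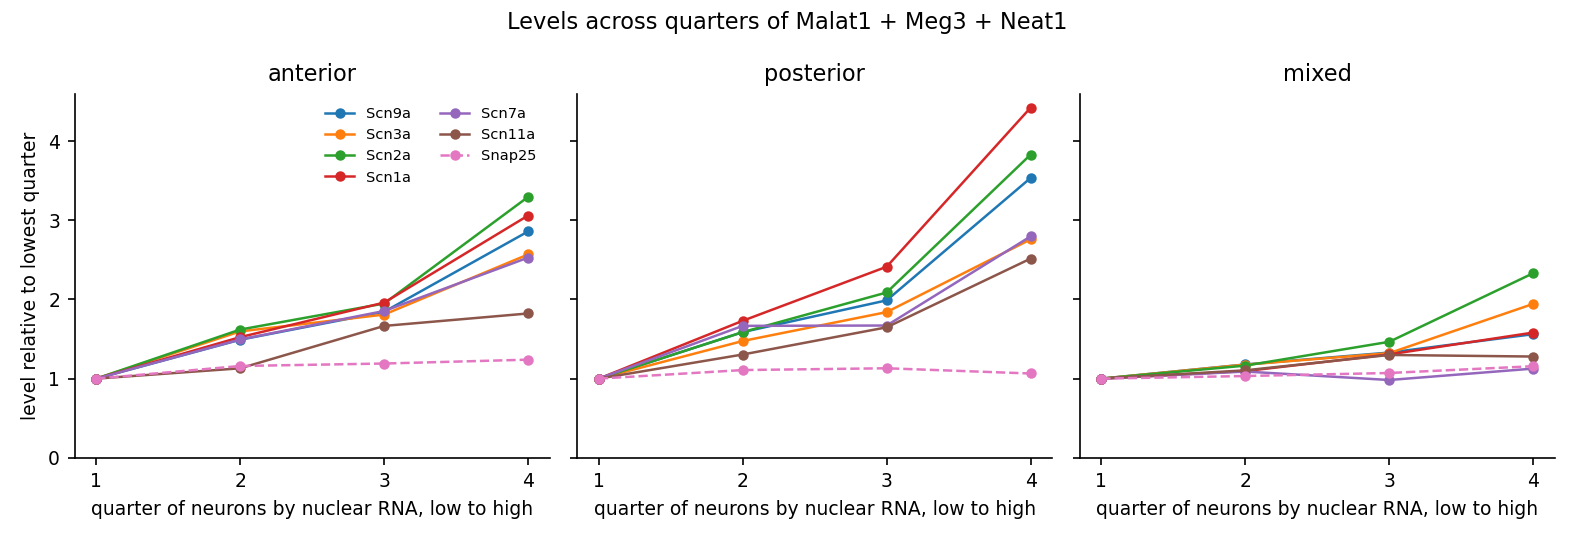
Level of 6 members (solid lines) and Snap25 (dashed line) in 4 equal bins of neurons ranked by Malat1, Meg3 and Neat1, relative to the lowest bin of each library. Members climb up to 4.42-fold (Scn1a in posterior neurons) while Snap25 stays within 1.24-fold.

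Finally, genes with the most similar pattern were sought over the 9 sums of 3 subtypes and 3 libraries, by Pearson correlation of log2(CPM + 1) centred within library. For Scn9a these were Lingo1 (r = 0.998), Ttl (0.995) and Baalc (0.994), for Scn7a Aprt (0.993), Chst7 (0.988) and Abcb1a (0.988), and for Scn11a mt-Co3 (0.994), Taf13 (0.988) and Gcsh (0.988). For Scn3a they were Tceal8 (0.954), Stac (0.954) and Plekha5 (0.944), for Scn2a Extl2 (0.980), Irgq (0.965) and Cbl (0.965), for Scn1a Arl8a (0.982), 9330182L06Rik (0.980) and Lgmn (0.978), and for Scn8a Atg4d (0.991), Slc35c2 (0.988) and Cs (0.987). With 9 sums and 5843 genes compared, high values of r are common, and they are given as a description.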

How the data were processed

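The deposited matrices hold UMI counts per gene and barcode that the authors deposited, written by software version 3.1.0 for the mixed and by Cell Ranger 6.1.2 for the other libraries per the file headers; the submitters' processing notes name Cell Ranger 7.1.0, Seurat 4.4.2 and mm10. Whether intronic reads were counted is not given in the sources used here. Libraries were prepared with the 3′ V3 kit per the labels' protocols. Nothing was normalized upstream.

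From these counts, neurons, subtypes and other classes were gated as described. Other classes needed at least 1000 UMIs, 500 genes, at most 20% mitochondrial UMIs and 3 markers of their class (cardiomyocytes 5 markers and 200 UMIs per 10000). Their marker sum also had to exceed that of Snap25, Prph and Stmn2. No doublet caller was run; an alternative left out the 3% of neurons with most UMIs. Counts were summed per library and class and tested with edgeR 4.0.16 (quasi-likelihood, TMM, filterByExpr, library as a block, Benjamini-Hochberg over all genes tested); ± gives the standard error. Libraries block the fit because subtypes of a library share its animals and handling. Nothing says that the libraries are replicate preparations, so p-values measure how far differences between groups vary across these 3 libraries. That spread is moderated across genes. The total degrees of freedom, which include those borrowed from all genes, were 16.5 in the subtype fit and 109 in the cell class fit. Small p-values against glia and cardiomyocytes thus lean on a spread shared over genes. Classes with under 10 cells in a library were left out. DESeq2 1.42.0 was an alternative. On simulated data for the Ddah1 against Npy comparison (13124 genes, 200 changed 2-fold) 98.5% of changed genes were recovered with 8 false calls. The simulation gave every gene the same spread, no library effect beyond depth, and changes only in genes above a level limit. Its recovery rate therefore does not carry over to the calls in the real data. Depth was 55329380, 86391988 and 119825307 UMIs in the anterior, posterior and mixed libraries; intervals and floors (3 UMIs) cover counting error only. The members, partner list and subtype limits were chosen with earlier results of these data known. Named partners were the 2 highest and 2 lowest past the threshold per subtype comparison, beside Scn4a and beta subunits; some genes and 1 pore stretch that these rules cover are not reported here; like-patterned genes needed 20 CPM.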

Additional observations from a re-analysis of the deposited data

How the results depend on the processing

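Counts of called genes moved most without the library block, to 827 (Ddah1 against Npy neurons), 304 (Nos1 against Npy) and 1132 (Nos1 against Ddah1), in place of 3897, 1718 and 3800; in that fit without pairing by library, Scn9a and Scn7a kept the Ddah1 against Npy call and the Scn11a, Scn1a, Scn3a and Scn8a calls were lost (adjusted p = 0.107, 0.164, 0.857 and 0.741). Leaving out a library gave 2233 to 3562, 965 to 1393 and 2586 to 3048 calls in the same order, and 1111 to 2944 for neurons against cardiomyocytes and 5649 to 6375 for neurons against glia. The neurons with least nuclear RNA gave 2325 calls for Nos1 against Ddah1 and 889 for Nos1 against Npy. Between regions 156 genes passed 1.5-fold, and 44 in Npy neurons alone, 273 in Ddah1 neurons alone and 301 with each cell weighted alike; the settings by nuclear RNA and Ddah1 neurons alone were chosen after seeing the data. Scn9a was detected in 71.6% of mixed neurons, in place of 74.9%, when only neurons from 20000 UMIs were thinned to 10000, a setting also chosen after seeing the data.

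Region ratios crossed 1 for Scn9a (0.897 in Npy and 0.912 in Ddah1 neurons alone), Scn7a (0.805 in Npy neurons, 0.976 at low nuclear RNA), Scn11a (1.03 with TMM, 1.22 in Ddah1 neurons) and Scn10a (1.02 in Npy neurons, 1.31 at low nuclear RNA). Between classes and subtypes the signs that turned were of values not called: Scn2a between Nos1 and Npy neurons (log2 0.037 without the anterior library, 0.021 without the posterior one, 0.026 with a Nos1 limit of 2), Scn7a (-0.0015 with that limit) and Scn1a (-0.0041 at low nuclear RNA) between Nos1 and Ddah1 neurons, Scn8a against glia (-0.10 with RLE factors, -0.16 with DESeq2, and -0.24 to 0.35 on leaving out a library), and Scn7a (-1.28 to 12.19) and Scn8a (-1.22 to 12.18) against cardiomyocytes on leaving out a library. The high ends are without the anterior library, where posterior cardiomyocytes hold no UMI of either and the value depends on the prior count. The causes were not tested. Depth limits Scn10a, the cardiomyocytes and the Nos1 neurons most.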
